A study of Mus musculus with 20 samples.

Results

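Chaperones, folding enzymes and degradation factors of the endoplasmic reticulum (ER), together with the transcription factor gene that drives many of them, were followed in mouse B16 melanoma cells carrying different forms of the NF-kB subunit p65/RelA. The set holds 10 named genes: Hspa5, Hsp90b1, Calr, Pdia4, Dnajb9, Dnajc3, Sdf2l1, Herpud1, Edem1 and Xbp1. They were found through the transcript accession of each array probe, and all 10 were measured, on 11 probes, among 18738 genes tested. The study asked which genes respond to p65/RelA, to its non-cleavable form and to the pieces that cleavage would leave. Cells of the Bcr-Abl+ B16 line, which thus carry the Bcr-Abl fusion in every group, were transfected with a plasmid for wild-type p65/RelA (WT), for the D361E mutant, for residues 1 to 361 (N-fragment), for residues 362 to 549 (C-fragment), for both fragments together (N+C), or with a void plasmid (void). Of the 20 arrays, 5 were of N+C and 3 of each of the other groups. The source name given as Blanck was read as the void plasmid. The labels name a single transfected line, give "mouse C3H eOuJ" as its strain (not the strain from which B16 arose), and state neither the time after transfection, nor the share of cells transfected, nor whether the samples were separate cultures. All p-values therefore measure only the spread between these samples.

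p65/RelA binds DNA through the Rel homology domain in its N-terminal part and activates transcription through its C-terminal part, and the cut modelled here would separate them. The unfolded protein response matches the folding capacity of the ER to the protein load that enters it. When unfolded proteins accumulate, the kinase and nuclease IRE1 splices Xbp1 mRNA into the form that encodes the active XBP1 factor, ATF6 is released from the ER membrane by proteolysis, and the kinase PERK slows translation and raises ATF4. XBP1 and ATF6 then act on promoters of the ER chaperones and of genes for ER-associated degradation, the route by which misfolded proteins are sent back to the cytosol. An array probe of this kind reads total Xbp1 mRNA and does not separate the spliced from the unspliced form.

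The promoters of the set were read first, to see which members hold the known ER stress elements. Sequences are those of RefSeq on GRCm38.p6, all 10 members were matched, and the 250 bases before each start site were searched on both strands. The ER stress element (ERSE, CCAAT and CCACG with 9 free bases between them) was present in 37 of 32851 promoters (0.113%), among them those of Hspa5, Hsp90b1, Calr and Dnajc3, with 2 copies in Hsp90b1. The related ERSE-II (ATTGG and CCACG with 1 free base between them) was present in 10 promoters (0.0304%), and Herpud1 was the only member with it. The stretches below show these elements 5′ to 3′ on the strand of the gene, with their fixed letters in capitals and 10 further bases on each side.
Hspa5 (chr2:34772015-34772053, plus strand): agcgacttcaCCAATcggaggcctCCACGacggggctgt
Hsp90b1 (chr10:86705523-86705666, minus strand): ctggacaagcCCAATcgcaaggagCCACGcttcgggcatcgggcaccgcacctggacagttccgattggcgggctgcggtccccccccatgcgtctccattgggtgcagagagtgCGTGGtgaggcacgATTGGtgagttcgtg
Calr (chr8:84847065-84847103, minus strand): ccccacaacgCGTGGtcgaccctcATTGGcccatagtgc
Dnajc3 (chr14:118937817-118937855, plus strand): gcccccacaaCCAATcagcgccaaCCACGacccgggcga
Herpud1 (chr8:94386367-94386397, plus strand): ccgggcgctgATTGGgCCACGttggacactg
In Calr, and in the second copy of Hsp90b1, the capitals read as the reverse complement of the element. The CCACG box on its own is common, since it occurred in 9311 promoters (28.3%), and 8 members held it. These counts include the box inside each ERSE and ERSE-II. The 120 bases before the start sites of Sdf2l1 and Xbp1 are shown because these genes fell with the N-fragment against void, as Herpud1 did, while holding neither full element in the window searched. Pdia4, Dnajb9 and Edem1, which were not called there, also held neither. Capitals mark the CCACG box or its reverse complement, which the Xbp1 stretch lacks.
Sdf2l1 (chr16:17132384-17132503, minus strand): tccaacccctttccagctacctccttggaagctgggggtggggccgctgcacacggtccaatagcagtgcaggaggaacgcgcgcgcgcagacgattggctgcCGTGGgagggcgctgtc
Xbp1 (chr11:5520521-5520640, plus strand): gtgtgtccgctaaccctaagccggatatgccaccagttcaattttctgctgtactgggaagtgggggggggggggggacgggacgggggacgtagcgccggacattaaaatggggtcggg
The unfolded protein response element UPRE (TGACGTGG) was found in 185 promoters (0.563%) and the cAMP response element core (TGACGTCA) in 508 (1.55%), and neither was found in a member. An NF-kB motif was found in 1281 promoters (3.9%), of which Edem1 was the only member. The start site used for Edem1 lies inside its gene span, which runs from 108824045 to 108859356 on chromosome 6. The search there ended at base 108828640, so this match depends on that start site. For the other members the start site was an end of the gene span. A match describes letters in this window and was not tested as a binding site. The ER stress elements were known beforehand, so the shares over all promoters are descriptions, and enrichment was not tested.

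Levels are log2 of the processed signal minus the 75th percentile of the same array, so that 0 is the intensity below which 75% of that array's probes lie. Each level is compared only with the same probe on other arrays. Between 51.1 and 57.9% of spots were well above background per array, no spot was saturated, and each member was above background on all 20 arrays. The 7 melanocyte markers looked for (Tyr, Tyrp1, Dct, Pmel, Mlana, Mitf and Sox10) were above background on all 20 arrays. Of the haematopoietic, plasma cell, fibroblast and epithelial markers looked for, Ptprc, Cd79a, Jchain, Dcn, Lum and Krt8 were above background on none, while Cd3e, Itgam, Sdc1 and Col1a2 were above it on all 20. The summed melanocyte level was 10.10 to 10.21 with WT, 10.29 to 10.48 with D361E, 10.09 to 10.35 with the N-fragment, 10.23 to 10.39 with the C-fragment, 10.21 to 10.30 with N+C and 10.30 to 10.42 with void. The summed level of the 4 plasma cell markers, a secretory type rich in ER, was 0.52 to 0.70 with WT, 0.37 to 0.84 with D361E, 0.94 to 1.42 with the N-fragment, 0.84 to 0.95 with the C-fragment, 0.48 to 1.29 with N+C and 0.66 to 1.15 with void. Among these 4, Irf4 was above background on all 3 WT and all 3 D361E arrays, on 1 N-fragment array and on no C-fragment, N+C or void array, and Prdm1 was above it on 5 arrays spread over 4 groups. The sum of the 5 fibroblast markers was 0.05 to 0.20 with WT, 0.24 to 0.67 with D361E, 1.5 to 1.79 with the N-fragment, -0.63 to -0.49 with the C-fragment, -2.42 to -0.58 with N+C and 0.34 to 0.70 with void. Their part in the results was not tested. In RNA from whole cultures, less RNA per cell and fewer cells that express a gene cannot be told apart.

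Replicates stood apart in several groups, most clearly in N+C. Over all genes, N+C 1 to 3 correlated with each other at r = 0.9889 to 0.9915 and N+C 4 with N+C 5 at 0.9913, whereas pairs across the sets reached 0.9735 to 0.9824. N+C 4 and 5 had higher levels than N+C 1 to 3 of Sdf2l1, Dnajc3, Herpud1, Calr and Edem1, without overlap, and the other 5 members overlapped. Fits with only 1 of these sets were added after seeing this split. Leaving out a set also narrows the spread shared by all groups for genes that differ between the sets. The p-values of those fits are therefore descriptions. N-fragment 1 correlated with N-fragment 2 and 3 at r = 0.9857 and 0.9859, where those 2 reached 0.991 with each other. The D361E pairs reached 0.985 to 0.9881. Void 1 correlated with void 2 and 3 at 0.9865 and 0.9838, where those 2 reached 0.9889, and it differed from both in Pdia4 (1.52, against 2.03 and 1.93), Edem1 (1.49, against 1.86 and 1.86), Calr (4.99, against 5.25 and 5.28) and Xbp1 (5.09, against 4.85 and 4.88).

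Averaged over the 10 genes, the level was highest with the full-length forms and lowest with the separate fragments. The mean of the members was 3.40 to 3.55 on the WT arrays, 3.36 to 3.52 on the D361E arrays, 3.00 to 3.07 on the N-fragment arrays, 3.05 to 3.15 on the C-fragment arrays, 3.03 to 3.25 on the N+C arrays and 3.23 to 3.30 on the void arrays. Thus WT and D361E did not overlap with void, and the N- and C-fragment arrays lay below void. The mean hides different patterns among the genes, which are given by role.

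**Figure D1:**
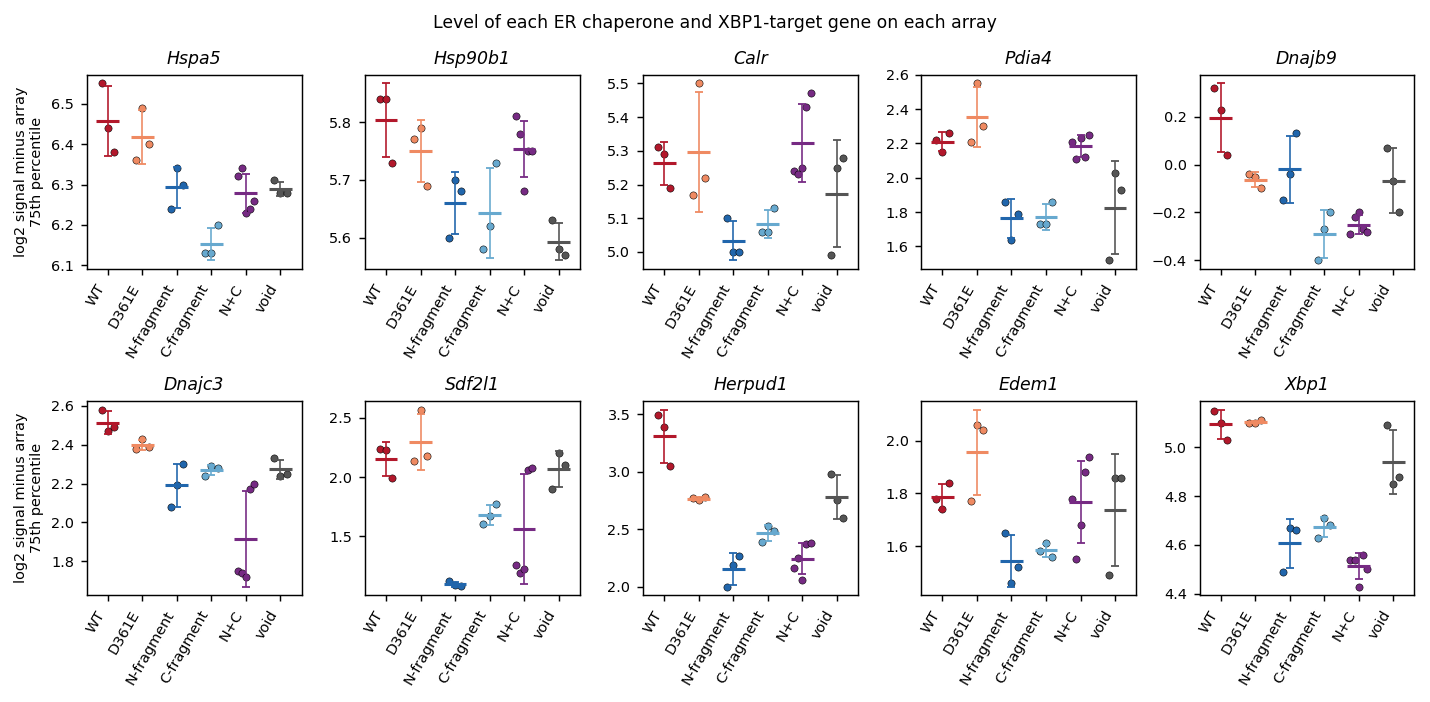
Each panel gives 1 gene, with the level (log2 signal minus the array's 75th percentile) on the vertical axis and the 6 groups on the horizontal axis. Points are arrays, horizontal bars are means and whiskers are SD (n = 3 arrays, 5 for N+C). Xbp1 and Herpud1 lie lowest with the 3 fragment groups, and Sdf2l1 and Dnajc3 split the N+C arrays into 2 sets.

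Xbp1, the transcription factor gene of the IRE1 branch, separated the full-length forms from every fragment group. Its level was 5.15, 5.10 and 5.03 on the WT arrays and 5.10, 5.10 and 5.11 on the D361E arrays. It was 4.49, 4.67 and 4.66 with the N-fragment, 4.63, 4.71 and 4.68 with the C-fragment, and 4.54, 4.54, 4.43, 4.56 and 4.50 with N+C, against 5.09, 4.85 and 4.88 with void. All 11 fragment arrays lay below all 9 other arrays. In the limma fit Xbp1 fell against void to 0.792-fold with the N-fragment (log2 -0.34 ± 0.07 SE, adjusted p = 0.0011), to 0.829-fold with the C-fragment (log2 -0.27 ± 0.07, adjusted p = 0.014) and to 0.743-fold with N+C (log2 -0.43 ± 0.06, adjusted p = 7.74e-05). Against WT the falls were log2 -0.48 with the N-fragment (adjusted p = 4.63e-05), -0.42 with the C-fragment (adjusted p = 0.00183) and -0.58 with N+C (adjusted p = 3.89e-06). Neither WT (log2 0.15, adjusted p = 0.191) nor D361E (log2 0.16, adjusted p = 0.141) was called against void, and both were called without void 1 (log2 0.22, adjusted p = 0.038 for WT and log2 0.23, adjusted p = 0.025 for D361E). The C-fragment call against void was lost without void 1 (log2 -0.19, adjusted p = 0.0525) and without C-fragment 1 (log2 -0.25, adjusted p = 0.0586). Both calls of the separate fragments were also lost in a fit of only the groups compared (adjusted p = 0.0624 with the N-fragment and 0.0902 with the C-fragment). On values not scaled between arrays, where the median of all genes stood at log2 0.28, 0.21 and 0.19 for the N-fragment, C-fragment and N+C against void, Xbp1 was at 0.00, -0.03 and -0.21 and was not called. Its falls against WT were called under every alternative run.

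Herpud1 encodes an ER membrane protein that organises the ubiquitin ligase complex of ER-associated degradation, and its group means spanned 1.16 on the log2 scale, next to 1.20 for Sdf2l1 and 0.22 to 0.59 for the other members. The WT arrays had 3.49, 3.39 and 3.05 and the D361E arrays 2.77, 2.75 and 2.78. The N-fragment arrays had 2.00, 2.19 and 2.27, the C-fragment arrays 2.39, 2.53 and 2.48, and the N+C arrays 2.16, 2.25, 2.06, 2.37 and 2.38, against 2.98, 2.75 and 2.60 for void. No array of another group reached the lowest WT array, and every fragment array lay below every void array. Herpud1 rose with WT against void (1.45-fold, log2 0.54 ± 0.12, adjusted p = 0.0102), a call lost without void 3 (log2 0.45, adjusted p = 0.0581) and without WT 1 (log2 0.45, adjusted p = 0.0554). It fell against void to 0.651-fold with the N-fragment (log2 -0.62 ± 0.12, adjusted p = 0.000877) and to 0.693-fold with N+C (log2 -0.53 ± 0.11, adjusted p = 0.00177). The C-fragment did not pass the test (log2 -0.31, adjusted p = 0.107). The ERSE-II shown above stands in its promoter.

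Against WT, Herpud1 was the most reduced member in each group. It was 0.448-fold with the N-fragment (log2 -1.16, 95% interval -1.41 to -0.90), 0.477-fold with N+C (log2 -1.07, interval -1.30 to -0.84) and 0.556-fold with the C-fragment (log2 -0.85, interval -1.10 to -0.59), with adjusted p of 2.26e-06, 2.79e-06 and 0.000666 in that order. These 3 calls held under every alternative run. D361E, whose mean was level with void (log2 0.00, interval -0.26 to 0.25), fell below WT as well (0.686-fold, log2 -0.54 ± 0.12, adjusted p = 0.0145). That last call was lost without WT 1 (log2 -0.46, adjusted p = 0.0882), WT 2 (log2 -0.50, adjusted p = 0.0743), D361E 2 (log2 -0.54, adjusted p = 0.0509) or D361E 3 (log2 -0.55, adjusted p = 0.0508). Unscaled values ended the calls against void with the N-fragment (log2 -0.28, adjusted p = 0.207) and N+C (log2 -0.32, adjusted p = 0.139).

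Edem1, a mannosidase-like lectin that hands misfolded glycoproteins to degradation, was called in no comparison. Its levels ran between 1.74 and 1.84 with WT, 1.77 and 2.06 with D361E, 1.46 and 1.65 with the N-fragment, 1.56 and 1.61 with the C-fragment, 1.55 and 1.94 with N+C, and 1.49 and 1.86 with void. Against WT the N-fragment stood at log2 -0.24 (interval -0.49 to 0.00, adjusted p = 0.132) and the C-fragment at -0.21 (interval -0.45 to 0.04, adjusted p = 0.408). With slide as a block Edem1 was called lower against WT with the N-fragment (log2 -0.36, adjusted p = 0.000221), and at an adjusted p of 0.0218 each with the C-fragment (log2 -0.21) and N+C (log2 -0.17). That block also called it against void, higher with WT (log2 0.20, adjusted p = 0.035) and D361E (log2 0.19, adjusted p = 0.0207) and lower with the N-fragment (log2 -0.15, adjusted p = 0.044). The last was called without void 1 as well (log2 -0.32, adjusted p = 0.0403).

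Hspa5 encodes BiP, the HSP70 chaperone of the ER that also holds the stress sensors inactive, and its differences were small but tight. Its level was 6.55, 6.44 and 6.38 with WT, 6.36, 6.49 and 6.40 with D361E, 6.24, 6.34 and 6.30 with the N-fragment, and 6.13, 6.13 and 6.20 with the C-fragment. It was 6.32, 6.34, 6.23, 6.24 and 6.26 with N+C and 6.31, 6.28 and 6.28 with void. WT and the C-fragment were the extremes, and the WT arrays lay above every fragment and void array. Hspa5 fell against WT with the C-fragment (0.81-fold, log2 -0.30 ± 0.06, adjusted p = 0.0044), a call kept under every alternative run. It also fell against WT with N+C (0.883-fold, log2 -0.18, adjusted p = 0.0144) and the N-fragment (0.892-fold, log2 -0.16, adjusted p = 0.0364). Without WT 1 these were no longer called for N+C (log2 -0.13, adjusted p = 0.108) and the N-fragment (log2 -0.12, adjusted p = 0.18). Both calls were also lost with no filter (adjusted p = 0.0632 for N+C and 0.115 for the N-fragment). A fit of only the groups compared lost them too (adjusted p = 0.102 and 0.139). On unscaled values the N-fragment was not called (log2 -0.23, adjusted p = 0.122). The N-fragment call was also lost without WT 2 (log2 -0.17, adjusted p = 0.0705), N-fragment 1 (log2 -0.14, adjusted p = 0.124) or N-fragment 3 (log2 -0.17, adjusted p = 0.0751), and with slide as a block (log2 -0.15, adjusted p = 0.0574). Against void no group was called, from log2 0.17 with WT (adjusted p = 0.0678) to -0.13 with the C-fragment (adjusted p = 0.125). Quantile normalization called WT (log2 0.29, adjusted p = 0.00201) and D361E (log2 0.22, adjusted p = 0.00783) higher than void.

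Hsp90b1, which encodes GRP94, the HSP90 chaperone of the ER, was lowest with void. Its level was 5.84, 5.84 and 5.73 with WT, 5.77, 5.79 and 5.69 with D361E, 5.60, 5.70 and 5.68 with the N-fragment, and 5.58, 5.62 and 5.73 with the C-fragment. It was 5.81, 5.78, 5.68, 5.75 and 5.75 with N+C and 5.63, 5.58 and 5.57 with void. All WT, D361E and N+C arrays lay above all void arrays, and both separate fragments overlapped void. It rose against void with WT (1.16-fold, log2 0.21 ± 0.06, adjusted p = 0.0239) and N+C (1.12-fold, log2 0.16 ± 0.05, adjusted p = 0.0271), and D361E did not pass the test (log2 0.15, adjusted p = 0.0823), although it did with slide as a block (log2 0.17, adjusted p = 0.0366). The WT call was lost without void 2, void 3, WT 1 or WT 2 (log2 0.21, 0.20, 0.19 and 0.19). No filter (adjusted p = 0.0936) and a fit of only the groups compared (adjusted p = 0.0987) lost it too. The N+C call was lost without void 2, void 3, N+C 1 or N+C 2 (log2 0.15 each). It was also lost with quantile normalization (adjusted p = 0.0652), normexp (0.331), no filter (0.0966), only the groups compared (0.136) and N+C 4 and 5 only (0.0678). Against WT the N-fragment stood at log2 -0.15 (adjusted p = 0.0636) and the C-fragment at -0.16 (adjusted p = 0.125), the first being called without WT 3 (log2 -0.18).

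Calr, which encodes the calcium-binding lectin chaperone calreticulin, was not called against void or WT in the main fit, which had no covariate. Its levels ran between 5.19 and 5.31 with WT, 5.17 and 5.50 with D361E, 5.00 and 5.10 with the N-fragment, 5.06 and 5.13 with the C-fragment, 5.23 and 5.47 with N+C, and 4.99 and 5.28 with void. The separate fragments lay below all WT arrays (N-fragment log2 -0.23, adjusted p = 0.0933, and C-fragment log2 -0.18, adjusted p = 0.394). The N-fragment was called against WT with slide as a block (log2 -0.31, adjusted p = 0.00598) and with quantile normalization (log2 -0.27, adjusted p = 0.0483). Unscaled values (log2 -0.29, adjusted p = 0.0374) and a fit of only the groups compared (log2 -0.23, adjusted p = 0.0495) called it too. Slide as a block called Calr higher with N+C against void (log2 0.18, adjusted p = 0.0452), as did unscaled values (log2 0.37, adjusted p = 0.00408).

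Pdia4 encodes ERp72, a protein disulfide isomerase, and rose with 3 of the 5 constructs, more than any other member. Its level was 2.22, 2.15 and 2.26 with WT, 2.21, 2.55 and 2.30 with D361E, 1.86, 1.64 and 1.79 with the N-fragment, and 1.73, 1.73 and 1.86 with the C-fragment. It was 2.21, 2.11, 2.23, 2.12 and 2.25 with N+C and 1.52, 2.03 and 1.93 with void. The WT, D361E and N+C arrays all lay above every array of the separate fragments and void. Pdia4 rose against void with D361E (1.44-fold, log2 0.53 ± 0.11, adjusted p = 0.00497), WT (1.3-fold, log2 0.38 ± 0.11, adjusted p = 0.0452) and N+C (1.28-fold, log2 0.36 ± 0.10, adjusted p = 0.0166). Void 1 was the lowest of all 20 arrays, and without it D361E stood at log2 0.37 (adjusted p = 0.0261), WT at 0.23 (adjusted p = 0.144) and N+C at 0.21 (adjusted p = 0.113). A fit of only the groups compared kept none of these calls (adjusted p = 0.137 for D361E, 0.182 for WT and 0.103 for N+C). The WT call was lost as well without void 3, WT 1, WT 2 or WT 3 (log2 0.43, 0.38, 0.41 and 0.36). Against WT, Pdia4 fell to 0.736-fold with the N-fragment (log2 -0.44, adjusted p = 0.00768) and to 0.737-fold with the C-fragment (log2 -0.44, adjusted p = 0.0363), and N+C was level with WT (log2 -0.02, interval -0.24 to 0.19). The C-fragment call was lost when any of the 6 arrays compared was left out (log2 -0.48 to -0.41), and the N-fragment call was kept each time.

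Sdf2l1, an ER resident that works with the ER J-proteins in BiP complexes, had the deepest fall against void and split the N+C group. The N-fragment arrays had 1.12, 1.09 and 1.08 and the C-fragment arrays 1.60, 1.67 and 1.77. N+C 1 to 3 had 1.26, 1.19 and 1.22, and N+C 4 and 5 had 2.06 and 2.08. The WT arrays had 2.24, 2.23 and 1.99, the D361E arrays 2.14, 2.57 and 2.18, and the void arrays 1.90, 2.20 and 2.10. N+C 1 to 3 thus lay near the N-fragment and N+C 4 and 5 among WT and void. With the N-fragment, Sdf2l1 fell to 0.511-fold against void (log2 -0.97 ± 0.22, adjusted p = 0.00291) and to 0.482-fold against WT (log2 -1.05 ± 0.22, adjusted p = 0.00171), and both calls held under every alternative run.

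The N+C values for Sdf2l1 depended on which arrays were used. With all 5 arrays N+C fell to 0.664-fold against WT (log2 -0.59 ± 0.20, adjusted p = 0.0386), whereas against void the test was not passed (log2 -0.50, adjusted p = 0.0723). With N+C 1 to 3 only, the difference from void was log2 -0.84 (adjusted p = 2.87e-05), and with N+C 4 and 5 only, the difference from WT was log2 -0.08 (adjusted p = 0.641). Both sets were chosen after seeing these values, so their p-values are descriptions. The call against WT was also lost when any 1 of N+C 1, 2 and 3 (log2 -0.51, -0.50 and -0.51) or of WT 1, 2 and 3 (log2 -0.55, -0.56 and -0.67) was left out, and the one against void was gained without N+C 4 or 5 (log2 -0.63 each). The arrays share 1 estimate of the spread, so that the split also reached the C-fragment, which stood at log2 -0.47 against WT (adjusted p = 0.298 with all arrays, 0.0116 with N+C 1 to 3 only and 0.0176 with N+C 4 and 5 only).

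Dnajc3 encodes p58IPK, a J-protein that serves BiP and inhibits PERK, and it was highest with WT. Its level was 2.58, 2.47 and 2.49 with WT, 2.38, 2.43 and 2.39 with D361E, 2.08, 2.19 and 2.30 with the N-fragment, and 2.24, 2.29 and 2.28 with the C-fragment. It was 1.75, 1.74, 1.72, 2.17 and 2.20 with N+C and 2.33, 2.24 and 2.25 with void. All N+C arrays lay below all void arrays, N+C 1 to 3 by far the most. Dnajc3 fell with N+C against WT (0.663-fold, log2 -0.59 ± 0.10, adjusted p = 0.000525) and against void (0.782-fold, log2 -0.35 ± 0.10, adjusted p = 0.0187). Against void it stood at -0.09 with N+C 4 and 5 only (adjusted p = 0.326), at -0.33 without void 1 (adjusted p = 0.0708) and at -0.14 on unscaled values (adjusted p = 0.478). With the N-fragment it also fell against WT (0.801-fold, log2 -0.32, adjusted p = 0.0488). That call was lost without WT 1, WT 2, WT 3, N-fragment 1 or N-fragment 2 (log2 -0.29, -0.34, -0.33, -0.26 and -0.32). WT stood at log2 0.24 against void (adjusted p = 0.226 with all arrays and 0.00735 with N+C 1 to 3 only). The second fit uses the same WT and void arrays and differs only through the shared spread. Its N+C set was chosen after seeing the data.

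Dnajb9 encodes ERdj4, a J-protein that targets BiP to unfolded clients and to IRE1. The brighter of its 2 probes read 0.32, 0.23 and 0.04 with WT, -0.04, -0.05 and -0.10 with D361E, -0.15, -0.04 and 0.13 with the N-fragment, and -0.40, -0.27 and -0.20 with the C-fragment. It read -0.29, -0.22, -0.20, -0.27 and -0.28 with N+C and 0.07, -0.07 and -0.20 with void. The C-fragment and N+C arrays lay below all WT arrays, and the N-fragment overlapped WT. Dnajb9 fell against WT with the C-fragment (0.715-fold, log2 -0.48 ± 0.09, adjusted p = 0.00414) and N+C (0.732-fold, log2 -0.45 ± 0.08, adjusted p = 0.000541), both called under every alternative run. Against void, N+C stood at log2 -0.19 (adjusted p = 0.0948) and the C-fragment at -0.22 (adjusted p = 0.111), and neither was called, although N+C was without void 3 (log2 -0.25). With slide as a block both were called, the C-fragment at log2 -0.28 (adjusted p = 0.0205) and N+C at -0.17 (adjusted p = 0.0341). With the mean of both probes the C-fragment was called at log2 -0.38 (adjusted p = 0.00383) and N+C at -0.36 (adjusted p = 0.00105). WT against void (log2 0.26, adjusted p = 0.0724) was called without void 1 (log2 0.33) or WT 3 (log2 0.34). The dimmer probe showed no rise with WT, at -3.38, -3.48 and -3.74 against -3.49, -3.47 and -3.24 for void. Over the alternatives that kept all WT and void arrays, this difference ran from log2 0.06 to 0.66. The N-fragment against WT (log2 -0.22, adjusted p = 0.081) was called without WT 3 or N-fragment 3 (log2 -0.29 each).

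**Figure D2:**
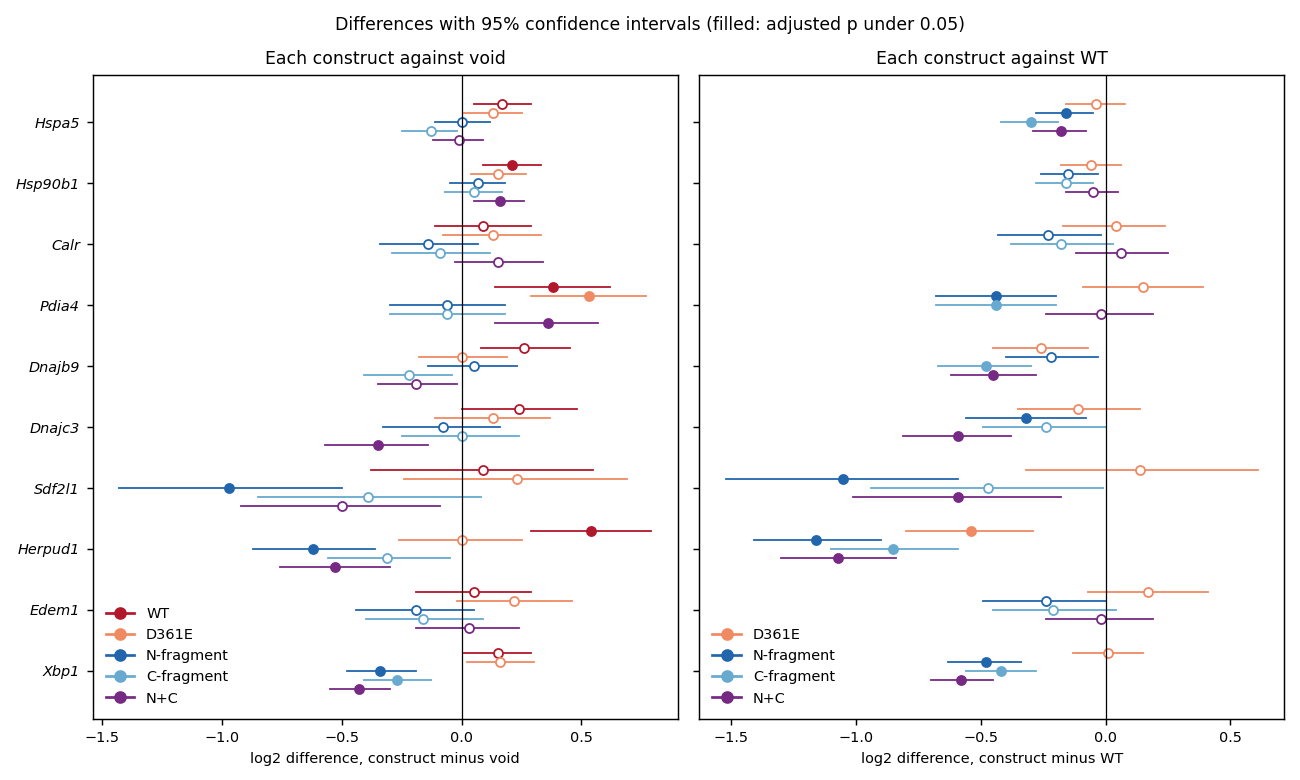
Points are log2 differences of each gene (rows), construct minus void on the left and construct minus WT on the right, and lines are 95% confidence intervals of the fit over 20 arrays. Filled points have an adjusted p under 0.05, and colours give the construct. On the right the fragment groups lie at or left of 0 for nearly all genes, with Herpud1 and Sdf2l1 farthest, while D361E is filled for Herpud1 alone.

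With WT the ER genes stood slightly above void as a group. Herpud1, Pdia4 and Hsp90b1 rose and 7 members were not called. All 10 differences were positive, with a median of log2 0.19, while the median of all genes was -0.03. Of all genes 9.39% were called in this comparison, 3.22% higher and 6.16% lower. The WT and void arrays did not overlap for 5 members, and for 33.6% of all genes. On unscaled values, where the median of all genes was log2 0.37, 9 members were called higher, all but Sdf2l1. On the 1 slide that held both groups, 9 of 10 members were higher with WT 2 than with void 1 and 1 differed by 0.00 (median log2 0.23). With D361E against void Pdia4 rose and 9 members were not called, where 13.5% of all genes were called, 6.04% higher and 7.44% lower. The members' median was log2 0.14, and the groups did not overlap for 5 members and for 31.1% of all genes. On slide 2 all 10 members were higher with D361E than with void, and on slide 5 this held for 7.

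Against void the separate fragments called about the share of members that they called of all genes. Sdf2l1, Herpud1 and Xbp1 fell with the N-fragment and 7 were not called, where 31.1% of all genes were called, 13.2% higher and 17.9% lower. The groups did not overlap for these 3 members and for 43.3% of all genes. Xbp1 fell with the C-fragment and 9 members were not called, where 13.1% of all genes were called, 4.88% higher and 8.25% lower. The groups did not overlap for 4 members and for 39.0% of all genes. With N+C 2 members rose (Pdia4 and Hsp90b1), 3 fell (Herpud1, Xbp1 and Dnajc3) and 5 were not called, where 24.6% of all genes were called, 11.8% higher and 12.8% lower. Here 6 members had groups that did not overlap, as did 24.4% of all genes. The members' medians were log2 -0.11, -0.15 and -0.10 for the N-fragment, C-fragment and N+C, beside -0.06, -0.02 and -0.03 for all genes. The scaling turned this balance. On unscaled values, where all genes had medians of log2 0.28, 0.21 and 0.19, Hspa5, Hsp90b1 and Dnajb9 rose and Sdf2l1 alone fell with the N-fragment (median log2 0.22), no member was called with the C-fragment (median log2 0.09), and Hsp90b1, Pdia4 and Calr rose and none fell with N+C (median log2 0.11).

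Against WT all 10 members were lower with each separate fragment. With the C-fragment Herpud1, Dnajb9, Pdia4, Xbp1 and Hspa5 fell and 5 were not called, in a comparison where 4.44% of all genes were called, 2.09% higher and 2.35% lower. The members' median was log2 -0.36 (all genes 0.02), and the C-fragment and WT arrays did not overlap for any of the 10, where 38.2% of all genes had groups that did not overlap. The 3 slides that held both groups gave medians of log2 -0.43, -0.26 and -0.32. That all 10 members were lower with the C-fragment on each slide follows from the lack of overlap. With the N-fragment Herpud1, Sdf2l1, Xbp1, Pdia4, Dnajc3 and Hspa5 fell and 4 were not called, where 27.3% of all genes were called, 13.8% higher and 13.5% lower. Their median was log2 -0.28 (all genes -0.03), and the groups did not overlap for 9 members and for 47.9% of all genes. All 10 were lower on both slides that held these groups, which for those 9 members follows from the lack of overlap.

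With N+C against WT Herpud1, Dnajc3, Sdf2l1, Xbp1, Dnajb9 and Hspa5 fell and 4 were not called, where 23.3% of all genes were called, 13.6% higher and 9.67% lower. The groups did not overlap for 5 members and for 28.1% of all genes. Calr (log2 0.06), Edem1 (log2 -0.02), Pdia4 (log2 -0.02) and Hsp90b1 (log2 -0.05) lay close to WT, with intervals from -0.24 to 0.25 at the widest. With D361E against WT Herpud1 fell and 9 members were not called, where 4.21% of all genes were called, 2.42% higher and 1.79% lower, and 3 members had groups that did not overlap, as did 26.1% of all genes. The other 9 members ran from log2 -0.26 (Dnajb9, adjusted p = 0.125) to 0.17 (Edem1, adjusted p = 0.516). Over the full groups 5 members were higher and 5 lower with D361E (median log2 -0.01). The 1 slide with both groups held only WT 1 and D361E 1 of them, and there all 10 were lower with D361E (median log2 -0.12). WT 1 had the highest members' mean of the WT arrays (3.55), and D361E 1 had the lowest of the D361E arrays (3.36). The comparisons against void share the void arrays and those against WT share the WT arrays.

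Whether both fragments together add up was asked by setting N+C against void plus both fragment effects. Sdf2l1 measured 1.56 with N+C where the sum was 0.71 (log2 0.85 ± 0.29 above, adjusted p = 0.0479), Pdia4 measured 2.19 where the sum was 1.71 (log2 0.48 ± 0.15, adjusted p = 0.033) and Calr measured 5.33 where the sum was 4.95 (log2 0.38 ± 0.13, adjusted p = 0.0445). These 3 members were called above the sum and 7 were not called, where 23.1% of all genes were called, 14.3% above and 8.75% below. The excess of Sdf2l1 was log2 0.51 with N+C 1 to 3 only (adjusted p = 0.0189) and 1.36 with N+C 4 and 5 only (adjusted p = 6.39e-05). The N+C sets were chosen after seeing the data, so their p-values are descriptions. Herpud1 (log2 0.40, adjusted p = 0.0895) and Edem1 (log2 0.38, adjusted p = 0.0894) also stood above the sum, and both were called with N+C 4 and 5 only (log2 0.53, adjusted p = 0.0375 for Herpud1 and log2 0.52, adjusted p = 0.0224 for Edem1). Dnajc3 stood below (log2 -0.27, adjusted p = 0.236) and was called below the sum with N+C 1 to 3 only (log2 -0.45, adjusted p = 0.000406), with normexp (log2 -0.49, adjusted p = 0.0212) and on unscaled values (log2 -0.63, adjusted p = 0.0304). Hspa5, Hsp90b1, Dnajb9 and Xbp1 ran from log2 -0.01 to 0.18. Edem1 was also called without void 1 (log2 0.50) or N+C 2 (log2 0.43). The 3 calls above the sum were lost with slide as a block and in several other settings, given with the closing results.

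**Figure D3:**
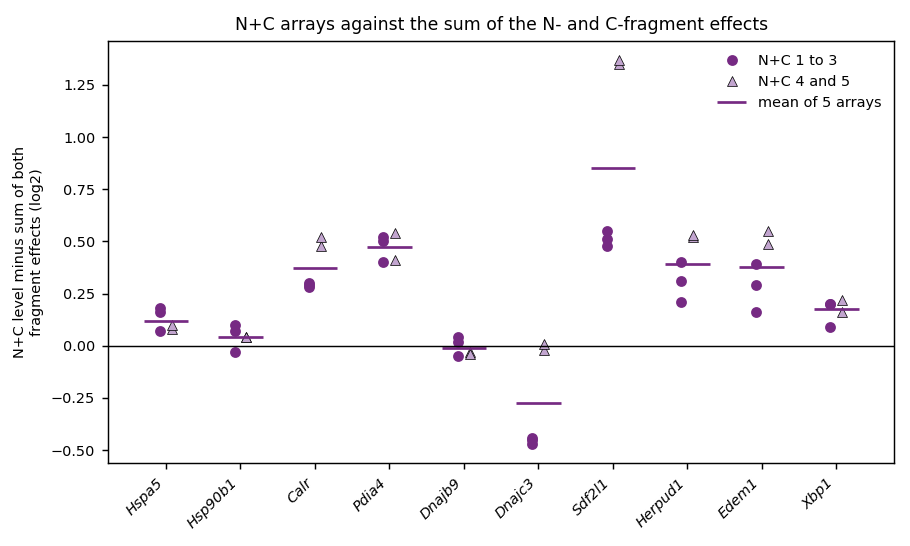
The vertical axis gives the level on each N+C array minus the sum of void and both fragment effects (log2), for each gene along the horizontal axis. Circles are N+C 1 to 3, triangles are N+C 4 and 5 and bars are means of the 5 arrays. Sdf2l1 lies above the sum on all 5 arrays and highest on N+C 4 and 5, and Dnajc3 lies below it on N+C 1 to 3 and near it on N+C 4 and 5.

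The members did not vary as 1 block. Over the 20 arrays the correlation of a gene with the mean of the other 9 was 0.83 for Sdf2l1, 0.80 for Herpud1 and for Xbp1, 0.73 for Hspa5, 0.67 for Dnajc3, 0.61 for Edem1, 0.52 for Dnajb9, 0.48 for Pdia4 and for Calr, and 0.43 for Hsp90b1. These are descriptions over arrays that share groups. Among 11412 other genes above background on all arrays, the 5 closest to the members' mean profile were Lman2l (r = 0.949), Lsm10 (0.934), Sp3os (0.919), C1rl (0.916) and B9d1 (0.912). Lman2l encodes a lectin of the early secretory pathway, and its group means were 1.94 with WT, 2.07 with D361E, 1.45 with the N-fragment, 1.47 with the C-fragment, 1.43 with N+C and 1.76 with void. The 3 least like it were Ccne1 (r = -0.928), which encodes cyclin E1, Pus7 (-0.916), a pseudouridine synthase gene, and Cmtr2 (-0.914), an mRNA cap methyltransferase gene.

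Other genes of the secretory and stress pathways, on 7 lists of 100 genes, are given by their counts beside the members. Of all genes 3.22% rose with WT against void, and against WT 2.35% fell with the C-fragment, 13.5% with the N-fragment, 9.67% with N+C and 1.79% with D361E. Of 17 ER folding enzymes and co-chaperones 2 rose with WT against void (Fkbp2 log2 0.35, Ero1b log2 0.25). Against WT 3 fell with the C-fragment, led by the ER oxidase gene Ero1b (log2 -0.64, adjusted p = 2.21e-05) and Creld2 (log2 -0.49), and 5 fell with the N-fragment, led by the BiP exchange factor gene Hyou1 (log2 -0.51, adjusted p = 0.000542). With N+C 1 rose, the ER cyclophilin gene Ppib (log2 0.62, adjusted p = 2.96e-06), and 3 fell. The list's medians against WT were log2 -0.16 with the C-fragment, -0.12 with the N-fragment and -0.04 with N+C.

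Among 20 measured genes of ER-associated degradation and translocation 1 to 3 passed the test against WT in each fragment group. Syvn1, the ubiquitin ligase of this route, fell against WT by 0.38 on the log2 scale with the N-fragment (adjusted p = 0.00076), by 0.36 with the C-fragment (adjusted p = 0.00776) and by 0.38 with N+C (adjusted p = 0.000458). Its partner Sel1l fell against WT with the C-fragment (log2 -0.39, adjusted p = 0.00945) and N+C (log2 -0.37, adjusted p = 0.00116). These were 1 of 20 with the N-fragment and 2 of 20 each with the C-fragment and N+C, and Vcp rose with N+C (log2 0.21). Of all genes 27.3% were called either way with the N-fragment, 4.44% with the C-fragment and 23.3% with N+C. Of 16 genes of vesicle coats and KDEL retrieval 1 rose and 1 fell with the N-fragment against WT (Kdelr3 log2 0.94, Golgb1 log2 -0.77).

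The stress sensors went separate ways. Eif2ak3, which encodes PERK, rose against void with WT (log2 0.45, adjusted p = 0.00125) and D361E (log2 0.57, adjusted p = 7.45e-05), and it fell against WT with the C-fragment (log2 -0.60, adjusted p = 0.000176) and N+C (log2 -0.69, adjusted p = 1.79e-06). Ern1, which encodes IRE1, rose with the N-fragment (log2 1.42 against void, adjusted p = 3.76e-07), where Atf6 (log2 -0.59, adjusted p = 0.0195) and the ER-bound factor gene Creb3l1 (log2 -1.74, adjusted p = 2.75e-06) fell. In the whole list of 10 sensors and ER-bound factors 3 rose and 3 fell with the N-fragment against WT. Of all genes 13.8% rose and 13.5% fell in that comparison, and 13.2% rose and 17.9% fell with the N-fragment against void.

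Many genes of the ATF4 and CHOP branch were higher with WT. Against void 7 of 16 rose with WT (median log2 0.38), where 3.22% of all genes rose, led by the glutathione-degrading Chac1 (log2 1.74, adjusted p = 9.17e-05) and the pseudokinase gene Trib3 (log2 1.73, adjusted p = 1.91e-05). Against WT 9 fell with D361E, 9 fell and 2 rose with the N-fragment, 7 fell with the C-fragment, and 9 fell and 1 rose with N+C. The share of all genes that fell there was 1.79% with D361E, 13.5% with the N-fragment, 2.35% with the C-fragment and 9.67% with N+C. Chac1 fell against WT by 2.46 on the log2 scale with the N-fragment (adjusted p = 3.52e-07), by 1.11 with the C-fragment (adjusted p = 0.0067) and by 1.86 with N+C (adjusted p = 3.93e-06). The difference between this list and the chaperones was not tested.

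Heat shock proteins of the cytosol and mitochondria served as chaperones outside the ER. Of 13 measured, 1 rose with WT against void, where 3.22% of all genes rose. It was Hspb1, a small heat shock protein, which rose against void with every construct (log2 1.20 with WT, 1.53 with D361E, 2.86 with the N-fragment, 1.25 with the C-fragment and 0.49 with N+C). In this list 1 gene rose with D361E, 1 with N+C and 2 with the C-fragment against void, and 2 rose and 1 fell with the N-fragment. Of 5 listed substrates of IRE1-dependent mRNA decay 3 were measured. Against void Pmp22 rose with N+C (log2 1.34, adjusted p = 4.52e-06) and the N-fragment (log2 0.56, adjusted p = 0.0117). Hgsnat fell with D361E (log2 -0.67, adjusted p = 0.00671) and the N-fragment (log2 -0.60, adjusted p = 0.0062), and Bloc1s1 fell with the C-fragment (log2 -0.28, adjusted p = 0.0256). The share of all genes that rose against void was 6.04% with D361E, 13.2% with the N-fragment, 4.88% with the C-fragment and 11.8% with N+C. The share that fell was 7.44%, 17.9%, 8.25% and 12.8% in that order.

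**Figure D4:**
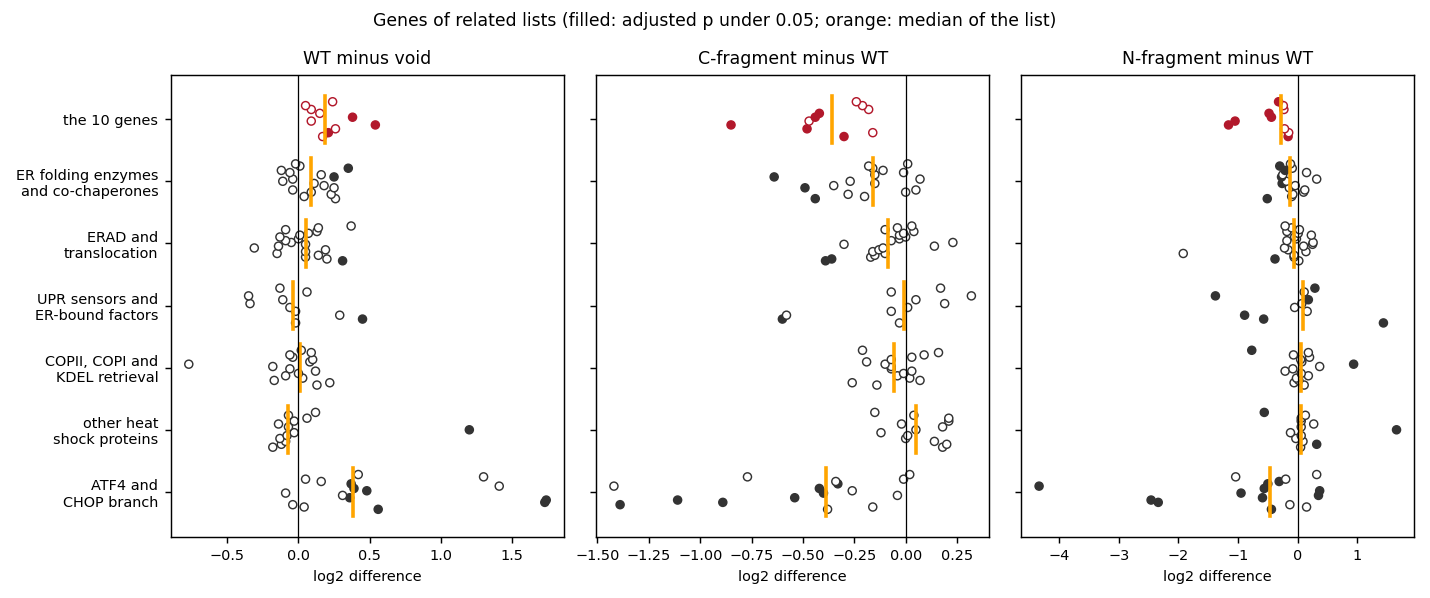
Each row is a list and each point a gene, with its log2 difference on the horizontal axis for WT minus void, C-fragment minus WT and N-fragment minus WT. Filled points have an adjusted p under 0.05, red marks the 10 genes and orange bars are medians. In the middle panel the 10 genes have a median of -0.36, and the ER folding list has -0.16.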

How the data were processed

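Total RNA of 20 samples of transfected B16 cells was hybridised to 1-colour Agilent arrays (Cy3). The deposited intensity values are the processed signals of Agilent Feature Extraction 10.7.3.1, per the submitters' processing notes and the file headers. The deposited series table held the same processed signals, on a linear scale and without scaling between arrays.

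From these values, log2 of the processed signal was scaled by subtracting the 75th percentile of all probes other than controls on that array, with outlier spots left out. Probes well above background on at least 3 arrays were kept (23432 of 39429). Gene names came from RefSeq accessions, which named 28663 probes (72.7%). The brightest probe stood for each gene. limma 3.58.1 (R 4.3.3) was fitted to all 20 arrays with 6 groups and no covariate, with Benjamini-Hochberg adjustment over 18738 genes, and a gene was called at an adjusted p under 0.05. The step was tested on simulated data. With 3 arrays against 3, an exact permutation test cannot go below p = 0.1, so that the shared fit gives the p-values. No counts exist, and the number of arrays limits the precision.

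To compare N+C with the sum of both fragments, each fragment's difference from void was added to void, and the total was subtracted from N+C. Named genes are all 10 members. For 7 lists of 100 other genes up to 2 called genes per direction and comparison are named, those of largest difference. The 5 genes most and 3 least correlated with the members' mean are named too. Members and lists were chosen with earlier results of these data known. Alternatives were other scalings and background corrections, other filters, averaging the probes of each gene, a fit of the compared groups alone, slide as a block and leaving out each array. Normexp used the median signal, since the files hold no mean signal column, unlike the plan. N+C 1 to 3 only, and N+C 4 and 5 only, were added after seeing the data. Whether the same replicate numbers pair samples could not be asked, since the labels give running numbers.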

Additional observations from a re-analysis of the deposited data

Results flagged for a closer look

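The effect of one fragment differed with the other present for 3 members, by the interaction term of the limma fit over all 20 arrays. Of all genes 23.1% were called by this term, 14.3% above the sum and 8.75% below. N+C exceeded the sum of both fragments by log2 0.85 for Sdf2l1 (adjusted p = 0.0479; 0.51 with N+C 1 to 3 only and 1.36 with N+C 4 and 5 only), by 0.48 for Pdia4 (adjusted p = 0.033) and by 0.38 for Calr (adjusted p = 0.0445). All 5 N+C arrays lay above the sum for each of these genes. Each call was lost under several of the alternatives, among them slide as a block (adjusted p = 0.196, 0.105 and 0.0986, in the same order) and unscaled values (adjusted p = 0.216, 0.542 and 0.897). Leaving out 1 array lost the call in 10 of 14 fits for Sdf2l1, 7 of 14 for Pdia4 and 9 of 14 for Calr.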

How the results depend on the processing

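No paired analysis was possible because the labels carry only running numbers, which join no samples across groups. Arrays of different groups shared slides, so slide was fitted as a block. Of 1720 member differences under alternatives 1520 stayed on their side of the threshold, 125 lost a call and 75 gained one. The sign changed for 78, of which 0 were called in either fit. The number of members called moved as follows, and the cause was not tested. Quantile normalization gave 4 for D361E against void, in place of 1. Normexp gave 5 for WT against void, in place of 3, and 2 each for D361E and the C-fragment against void, in place of 1. Unscaled values gave 9 for WT, 0 for the C-fragment and 3 for N+C against void (3 higher and 0 lower, in place of 2 and 3), 3 higher and 1 lower for the N-fragment (in place of 0 and 3), 2 for D361E against WT, and 1 beyond the sum. With no filter 1 was called for WT against void and 0 beyond the sum, and the mean of probes gave 2 for the C-fragment against void. With only the groups compared, 0 were called for WT, D361E and the C-fragment against void, for D361E against WT and beyond the sum, 2 for N+C against void and 8 for the C-fragment against WT. Slide as a block gave 3 for D361E and 2 for the C-fragment against void, and 0 beyond the sum. N+C 1 to 3 only gave 5 for WT and 2 for the C-fragment against void, and N+C 4 and 5 only gave 2 for the C-fragment and 2 for N+C against void.

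Leaving out 1 array gave 0 to 4 members for WT against void, 1 to 2 for D361E against void, 3 to 4 for the N-fragment against void, 0 to 1 for the C-fragment against void and 3 to 6 for N+C against void. Against WT it gave 0 to 1 for D361E, 4 to 7 for the N-fragment, 4 in each case for the C-fragment and 4 to 6 for N+C, and 0 to 4 beyond the sum.

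Over all genes, WT against void called 1759, but 7678 unscaled (7425 higher and 253 lower), 1116 without the filter, 3311 and 3058 with N+C 1 to 3 and N+C 4 and 5 only, and as few as 941 without 1 array. D361E against void called 2527, but 1451 with only its groups and 4116 and 3911 with the N+C sets. The C-fragment against void called 2460, but 4254 and 3950 with the N+C sets and as few as 1434 without 1 array. N+C called 4601 against void and 4360 against WT, but 2023 and 2645 with only its groups. D361E against WT called 788, but 1404 unscaled (130 higher and 1274 lower), 522 without the filter, 1884 and 1752 with the N+C sets and as few as 469 without 1 array. The C-fragment against WT called 832, but 553 with normexp, 469 without the filter, 2299 with only its groups, 1699 with slide as a block, 2051 and 1882 with the N+C sets and as few as 395 without 1 array. Unscaled higher and lower calls were 1852 and 554 for D361E, 6323 and 1121 for the N-fragment, 2865 and 513 for the C-fragment, and 4675 and 890 for N+C against void. They were 1556 and 2422 for the N-fragment, 74 and 866 for the C-fragment, and 858 and 3150 for N+C against WT, and 912 and 4391 beyond the sum. Unscaled medians of all genes were log2 0.37 for WT and 0.12 for D361E against void.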

Other observations

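The group means of Ccne1, the gene least like the ER set, were 4.01 with WT, 3.98 with D361E, 4.47 with the N-fragment, 4.33 with the C-fragment, 4.33 with N+C and 4.25 with void. The median correlation of all 11412 candidate genes with the members' mean was -0.017. Hspb1, which rose with every construct, fell short of the sum of both fragments by log2 3.62 on the N+C arrays.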
